A study of Mus musculus with 8 samples.

Results

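The 38 genes described here encode the machinery that copies nuclear DNA and part of the pathway that makes its building blocks. They were chosen by name as replication origin, polymerase and nucleotide synthesis genes, with no measured value in the rule. All 38 were found among the 23997 genes of the expression table. Levels are in FPKM, fragments scaled to transcript length and to library size. How the submitters scaled between libraries is not given. Genes were tested where 2 or more libraries reached 1 FPKM, a filter that 12565 genes of the table passed, all 38 among them.

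The 8 libraries, in 3 groups, hold RNA of leukemic bone marrow, taken from C57BL/6 mice once the disease had killed them. All groups began as bone marrow taken 4 days after mice were injected with 5-fluorouracil (5FU), grown in medium with IL3, IL6 and SCF, transduced, and transplanted into lethally irradiated mice after 48 h. The AE+Meis2 group (n = 3) received AML1-ETO, the fusion of the transcription factor Runx1 (AML1) with the corepressor-binding protein ETO, together with the homeobox gene Meis2, and had a median latency of 171 days. The AE9a+Meis2 group (n = 3) received Meis2 with AML1-ETO9a, a splice form that lacks the fusion's C-terminal end, and had a median latency of 102 days. The AE9a group (n = 2) received AML1-ETO9a without Meis2 and had a median latency of 138 days. The labels name neither an empty-vector control nor the donor or culture behind each library, so a p-value here covers only how these libraries differ, part of which may be technical. Whole marrow was sequenced, so the recipient's surviving cells and the leukemic cells are both in each library.

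Several libraries stood apart from their labels or from the rest. Runx1t1, the gene that gives the ETO portion of the fusion, was at 21.6 FPKM in the library labelled AE+Meis2 replicate 1, against 223 and 218 FPKM in replicates 2 and 3 of its group. Its Meis2 was 13.1 FPKM, against 38.2 and 81.5 FPKM in those libraries and 604 to 1277 FPKM in the AE9a+Meis2 libraries, so both transduced genes go against its label. In the other groups Runx1t1 was at 10.3 to 18.03 FPKM (AE9a+Meis2) and at 26.8 and 23.4 FPKM (AE9a). Of 1543 olfactory receptor, vomeronasal receptor, keratin-associated and beta-defensin genes, families silent in most tissues, AE9a+Meis2 replicate 3 had 84.1% and AE9a replicate 1 had 72.1% above 0, against 3.37% to 6.61% in the other libraries. Replicates 1 and 2 of AE+Meis2 had 158 and 176 FPKM of the Y-linked gene Eif2s3y, replicate 3 had 7.06, and the remaining 5 libraries lay between 0.120 and 0.574. The AE9a+Meis2 group alone had Eef1a1, a translation factor used by every cell, at a listed value of 0 (each of its 3 libraries), against 5756 to 8302 FPKM elsewhere. The part of both differences in the comparisons was not tested. Marrow markers were present throughout: Mpo, the peroxidase of immature granulocytes, lay between 117 and 2484 FPKM. The table gives no read counts, so the absolute depth of a library is unknown.

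DNA replication is prepared in G1, when the origin recognition complex (ORC), Cdc6 and Cdt1 load the ring of Mcm2 to Mcm7 onto DNA, and it starts in S phase, when Cdc45 and the GINS complex turn that ring into an active helicase. Primase and polymerase alpha lay down short primers, polymerases delta and epsilon extend them, the sliding clamp Pcna holds the polymerases on DNA after the RFC complex has loaded it, and the flap endonuclease Fen1 and DNA ligase Lig1 join the lagging strand. Ribonucleotide reductase (Rrm1 with Rrm2), thymidylate synthase (Tyms) and thymidine kinase (Tk1) supply the deoxynucleotides, and many of these genes are known targets of E2F transcription factors at the G1/S transition. 5-fluorouracil acts in part by blocking thymidylate synthase, and replication genes are often read as a measure of how many cells of a marrow are cycling.

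Promoter sequences show the sites through which E2F and NF-Y, a factor that binds CCAAT boxes, are known to act on such genes. RefSeq promoters on GRCm38.p6, the mm10 build, held 32 of the 38 genes, each from 250 bases before to 50 bases after the gene's first-listed start. The E2F motif TTTCGCGC was in 5 of these 32 promoters (15.6%) on either strand, against 0.65% of the 9386 tested genes with a promoter and 0.318% of all 27025 promoters. The E2F motif TTTGGCGC was in 6 of 32 (18.8%), against 1.07% of tested genes and 0.537% of all promoters. In all 9 of 32 (28.1%) held at least 1 of the E2F motifs, against 1.66% of tested genes and 0.833% of all promoters, and the 2 motifs overlap where TTTCGCGC and the reverse complement of TTTGGCGC share bases. CCAAT was in 21 of 32 (65.6%), against 39.1% of tested genes and 37.9% of all promoters. A match is a run of letters and not a measured binding site. Mcm5 and Mcm6, helicase subunits whose promoters were picked after their matches had been seen, carry both motif types within 160 bases upstream of the start. Capitals mark matches of the E2F motifs and of CCAAT in either direction, and each sequence reads toward the gene and ends at the base before the gene's annotated span, which for Mcm5 opens 41 bases before the start used in the promoter table.
Mcm5: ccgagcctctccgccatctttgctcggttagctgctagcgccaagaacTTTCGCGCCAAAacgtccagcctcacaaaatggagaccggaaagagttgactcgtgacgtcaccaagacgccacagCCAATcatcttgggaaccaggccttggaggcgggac
Mcm6: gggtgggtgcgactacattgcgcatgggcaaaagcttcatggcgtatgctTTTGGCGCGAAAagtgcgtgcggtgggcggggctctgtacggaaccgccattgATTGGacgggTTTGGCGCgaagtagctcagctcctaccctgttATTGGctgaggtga
The Mcm5 stretch is chr8:75109308-75109467 on the plus strand, and the Mcm6 stretch is chr1:128359706-128359865 on the minus strand. In both, TTTCGCGC and TTTGGCGC from opposite strands overlap in a single run of capitals.

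The 6 genes with the smallest p in any comparison, among those with a RefSeq promoter, are shown next with the 100 bases before their annotated spans (for Tyms and Orc2 these open 20 and 4 bases before the start in the promoter table), because the results below turn on them.
Orc6: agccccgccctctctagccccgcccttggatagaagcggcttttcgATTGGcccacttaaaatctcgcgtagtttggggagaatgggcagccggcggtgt
Cdt1: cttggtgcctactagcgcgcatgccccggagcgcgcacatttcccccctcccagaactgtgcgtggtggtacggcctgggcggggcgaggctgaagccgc
Rpa2: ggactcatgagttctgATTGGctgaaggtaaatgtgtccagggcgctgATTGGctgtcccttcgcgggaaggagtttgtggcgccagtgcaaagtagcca
Tyms: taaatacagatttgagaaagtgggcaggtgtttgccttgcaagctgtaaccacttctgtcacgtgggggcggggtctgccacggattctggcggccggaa
Rrm2: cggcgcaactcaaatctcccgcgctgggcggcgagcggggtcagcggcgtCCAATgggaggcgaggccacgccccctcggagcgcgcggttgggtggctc
Orc2: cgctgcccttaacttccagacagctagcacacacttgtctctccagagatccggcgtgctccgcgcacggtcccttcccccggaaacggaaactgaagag
They lie at chr8:85299532-85299631 on the plus strand (Orc6), chr8:122567915-122568014 on the plus strand (Cdt1), chr4:132768260-132768359 on the plus strand (Rpa2), chr5:30073646-30073745 on the minus strand (Tyms), chr12:24708154-24708253 on the plus strand (Rrm2) and chr1:58505114-58505213 on the minus strand (Orc2). No E2F match falls in these 100 bases of any of the 6, and CCAAT falls in those of Orc6, Rpa2 and Rrm2. Outside the printed bases, the counted promoter of Cdt1 has TTTGGCGC from base 33 after the start. That of Orc2 has CCAAT, on the opposite strand, from base 21 after the start, and that of Rpa2 has a further CCAAT at -231.

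All 38 genes were expressed in all 8 libraries, and none was listed at 0. Of the 38, 15 share exon bases with another annotated gene, 9 of them with a gene of the table, and such reads could be counted for either. Mean FPKM over the 8 libraries ran from 3.66 for Orc1, the large ORC subunit, to 206 for Pcna. The highest library of a gene was between 1.47 times (Pola2, the regulatory subunit of polymerase alpha) and 3.43 times (Pola1, its catalytic subunit) the lowest, with a median of 2.02 times. In bulk RNA, fewer cycling cells and less of these RNAs per cell cannot be told apart.

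Between groups no replication gene passed the test, a limma fit on log2(FPKM + 1) over all 12565 genes with Benjamini-Hochberg adjustment at 0.05. Few genes of any kind did. Adding Meis2 to the truncated fusion is read from AE9a+Meis2 set against AE9a, called the Meis2 comparison here, in which 0 of the 38 genes were called, against 6 of all genes tested (0.0478%), and at an unadjusted p under 0.05 the counts were 0 of 38 and 385 of 12565 (3.06%). The fusion comparison sets the full-length fusion against the truncated form, both labelled as with Meis2 (AE+Meis2 minus AE9a+Meis2). Meis2 was at 13.1 to 81.5 FPKM in AE+Meis2 and at 604 to 1277 FPKM in AE9a+Meis2. Runx1t1 was at 21.6 to 223 FPKM and at 10.3 to 18.03 FPKM. The levels of both genes thus differ along with the fusion form, and the part of each was not tested. In the fusion comparison 0 of 38 were called, against 5 genes (0.0398%). An unadjusted p under 0.05 was found for 0 of 38, against 898 (7.15%). The joint comparison, in which fusion and Meis2 both differ (AE+Meis2 minus AE9a), had 0 of 38 called, against 4 genes (0.0318%), and 0 of 38 against 752 (5.98%) had an unadjusted p under 0.05. The smallest adjusted p of any replication gene in limma was 1, 0.729 and 0.948 in the 3 comparisons, which share groups and so are not independent. Leaving out 1 library moved the counts over all genes to between 2 and 9, 6 and 23, and 1 and 10, the highest of each without AE+Meis2 replicate 3, and left 0 of the 38 genes called each time.

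The size of the differences was small and their error was large. In the Meis2 comparison, 11 of the 38 genes were higher and 27 lower (49.8% of all genes tested higher), and the median log2 difference was -0.11, against -0.0011 over all genes. In the fusion comparison, 28 were higher and 10 lower (54.9% of all genes higher), with a median of 0.11, against 0.04. In the joint comparison, 18 were higher and 20 lower (55.9% of all genes higher), with a median of -0.0035, against 0.06. The signs depended on single libraries and on scaling: the first median was 0.09 without AE9a+Meis2 replicate 1 and 0.29 without AE9a replicate 2, and -0.41 without AE9a replicate 1. The median for the fusion comparison was -0.06 without AE9a+Meis2 replicate 1 and 0.24 without AE9a+Meis2 replicate 2. Without the library labelled AE+Meis2 replicate 1, whose transduced genes go against its label, it was 0.04 and the median for the joint comparison 0.02. The fusion median was -0.13 when FPKM were rescaled to sums without small RNAs, a scaling that put the median of all genes at -0.18. The last median ran from -0.30 without AE9a replicate 1 to 0.41 without AE9a replicate 2. The standard deviation within groups of the 38 genes' median level in a library was 0.167. It is a spread of single libraries and not the error of the median differences. The 95% interval of a gene's log2 difference reached a median of 0.76, 0.68 and 0.76 to either side of the estimate. It lay within 1 of 0, a difference of less than 2-fold, for 22, 24 and 22 of the 38 genes, against 47.2%, 49.9% and 43.7% of all genes tested. For the other genes of the 38 a 2-fold difference was within the interval.

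**Figure D1:**
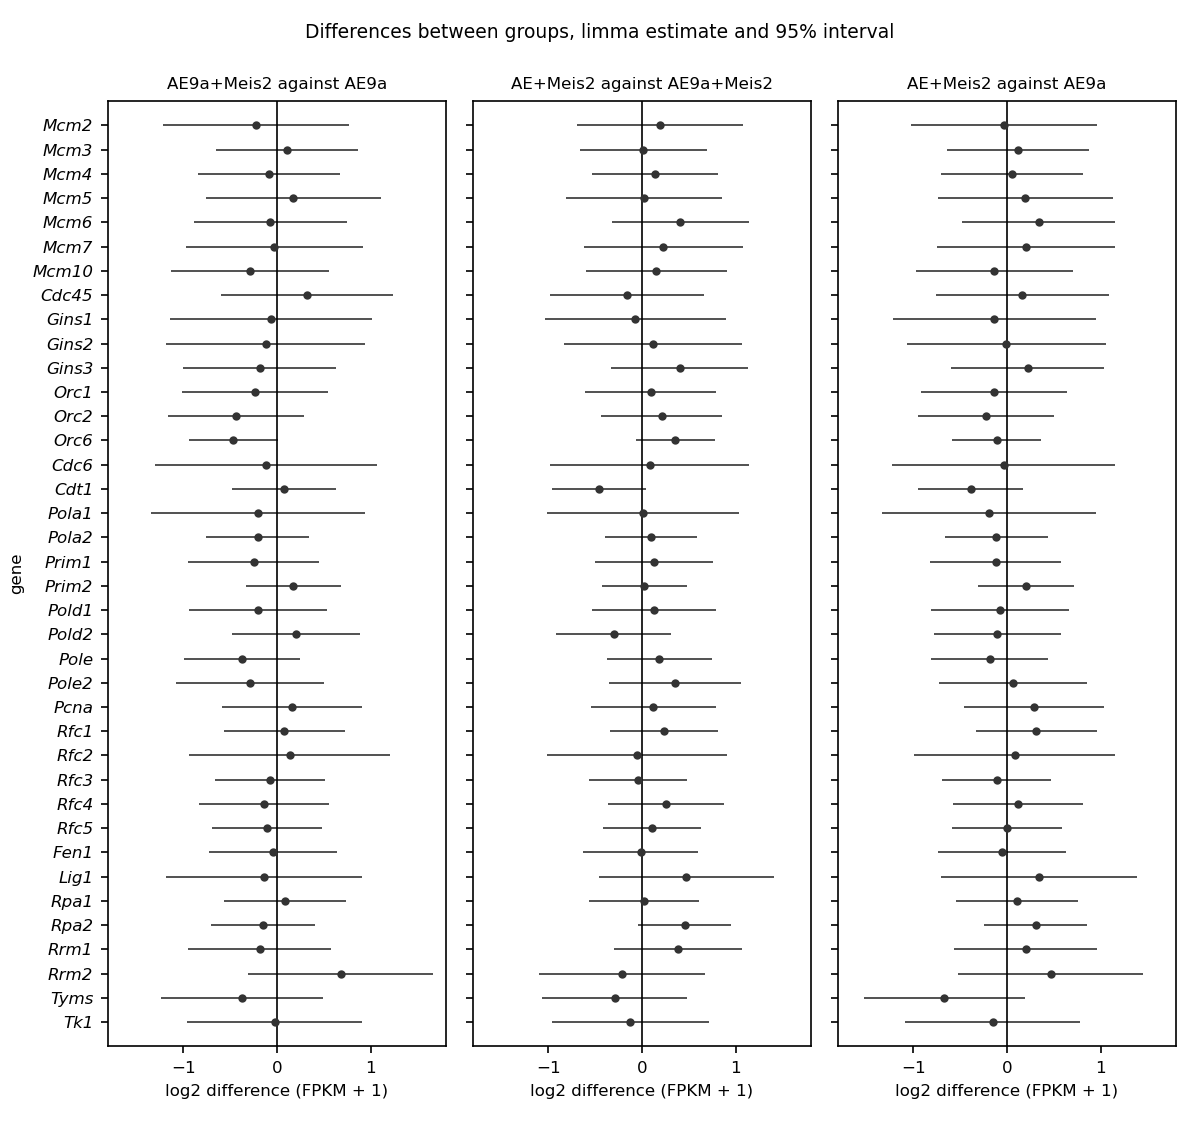
Log2 difference of each of the 38 replication genes (vertical axis, by role) in the 3 comparisons, with points for the limma estimate on log2(FPKM + 1) and lines for its 95% interval. Every interval crosses 0; the upper end for Orc6 in the Meis2 comparison, at 0.0068, is the nearest to it.

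In the helicase, the 6 subunits Mcm2 to Mcm7 had means between 37.8 and 90.1 FPKM. Mcm6 (chromosome 1, 128331575 to 128359705, mm10 coordinates from RefSeq), with the highest mean of the 11 helicase genes, had 96.7, 119 and 95.2 FPKM in AE+Meis2, 55.5, 99.5 and 84.0 in AE9a+Meis2, and 58.6 and 113 in AE9a. AE9a+Meis2 replicate 1 and AE9a replicate 1 were low, and the groups overlapped. The log2 difference of Mcm6 was 0.41 ± 0.31 (SE) in the fusion comparison (adjusted p = 0.809, limma), -0.07 ± 0.35 in the Meis2 comparison, and 0.34 ± 0.35 in the joint comparison. Mcm5, whose promoter is shown above, had 56.2, 40.1 and 63.9 FPKM in AE+Meis2, 34.9, 66.8 and 59.2 in AE9a+Meis2, and 32.4 and 64.3 in AE9a, with the same libraries low. Mcm2, Mcm3, Mcm4 and Mcm7 had means up to 76.3 FPKM and their lowest value in 1 of those 2 libraries. The ratio of Mcm4 to Mcm6, both subunits of the same ring, stayed between 0.332 and 0.480 over the 8 libraries, the steadiest of 17 ratios computed between partner genes. The ratio to Mcm6 ran from 0.421 to 0.734 for Mcm3 and from 0.338 to 0.705 for Mcm5. All 3 ratios were lowest in AE+Meis2 replicate 2.

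RNAs for the proteins that activate the ring were mostly lowest in AE+Meis2 replicate 2, as were Mcm3, Mcm5 and Mcm7 within their group. Gins1 (chromosome 2, 150909556 to 150931280), a GINS subunit, had 18.5, 6.64 and 18.2 FPKM in AE+Meis2, 11.9, 17.2 and 13.1 in AE9a+Meis2, and 11.1 and 19.1 in AE9a. Gins2, its partner, had 23.7, 8.49 and 22.1 FPKM in AE+Meis2, 13.9, 17.5 and 14.5 in AE9a+Meis2, and 12.5 and 22.0 in AE9a. For both genes AE+Meis2 replicate 2 was the lowest library of all 8, while the same library had the highest Mcm6. AE+Meis2 replicate 2 was the lowest of its group in 8 of the 11 helicase genes, against 39.5% of all genes tested. The ratio of Gins1 to Mcm6 was 0.0559 there and between 0.156 and 0.214 in the other 7 libraries. Cdc45, which joins GINS and the Mcm ring, and Mcm10, which acts at its start, were also lowest in AE+Meis2 replicate 2, at 12.3 and 7.23 FPKM. Gins3, the least abundant helicase gene with a mean of 5.79 FPKM, was highest in AE+Meis2 replicate 3, at 10.1 FPKM. Over the 11 helicase genes 3, 9 and 7 were higher in the Meis2, fusion and joint comparisons, with medians of -0.07, 0.14 and 0.12.

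The 5 origin licensing genes held the smallest p of both comparisons with AE9a+Meis2, and neither passed the adjustment. Orc6 (chromosome 8, 85299632 to 85308279), the smallest ORC subunit, had 28.5, 24.0 and 24.3 FPKM in AE+Meis2, 17.8, 22.6 and 19.0 in AE9a+Meis2, and 24.97 and 30.6 in AE9a. All 3 AE9a+Meis2 libraries were below the libraries of both other groups. The log2 difference was -0.47 ± 0.20 in the Meis2 comparison (95% interval -0.94 to 0.0068, limma adjusted p = 1) and 0.35 ± 0.18 in the fusion comparison (-0.07 to 0.78, limma adjusted p = 0.740). Orc6 shares exon bases with Vps35 on the opposite strand, and the kit named in the labels does not mark strand, so reads of the overlap cannot be told apart. Orc2, another ORC subunit, was also below AE9a in all AE9a+Meis2 libraries, with 16.9, 17.95 and 12.5 FPKM against 22.4 and 20.6 FPKM and a log2 difference of -0.44 ± 0.31 (limma adjusted p = 1). In AE+Meis2, Orc2 ran from 13.0 to 26.1 FPKM, across both other groups, and it too shares exon bases with a gene of the table, Nif3l1. Orc6 and Orc2 were the only 2 of the 38 genes whose groups did not overlap in the Meis2 comparison, both lower, while 10.7% of all genes tested did not overlap in that direction and 13.1% in the other.

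Cdt1 (chromosome 8, 122568015 to 122573130), the loading factor that geminin holds in check, had 20.2, 15.3 and 24.9 FPKM in AE+Meis2, 25.8, 28.2 and 28.8 in AE9a+Meis2, and 23.7 and 28.9 in AE9a. All AE+Meis2 libraries were below all AE9a+Meis2 libraries, the closest pair being 24.9 and 25.8 FPKM. Its log2 difference was -0.46 ± 0.21 in the fusion comparison (95% interval -0.96 to 0.04, limma adjusted p = 0.729), -0.39 ± 0.24 in the joint comparison (limma adjusted p = 0.950) and 0.07 ± 0.24 in the Meis2 comparison. In the fusion comparison, Orc6 was the only 1 of 38 genes that was higher with no overlap of the groups, and Cdt1 the only 1 lower, against 7% and 6.49% of all genes tested. Orc1 was between 2.40 and 5.55 FPKM and Cdc6 between 4.22 and 12.8 FPKM, both lowest in AE9a+Meis2 replicate 1 and highest in AE9a replicate 2. The 5 licensing genes thus did not share 1 direction: in the fusion comparison, 4 were higher and Cdt1 lower.

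**Figure D2:**
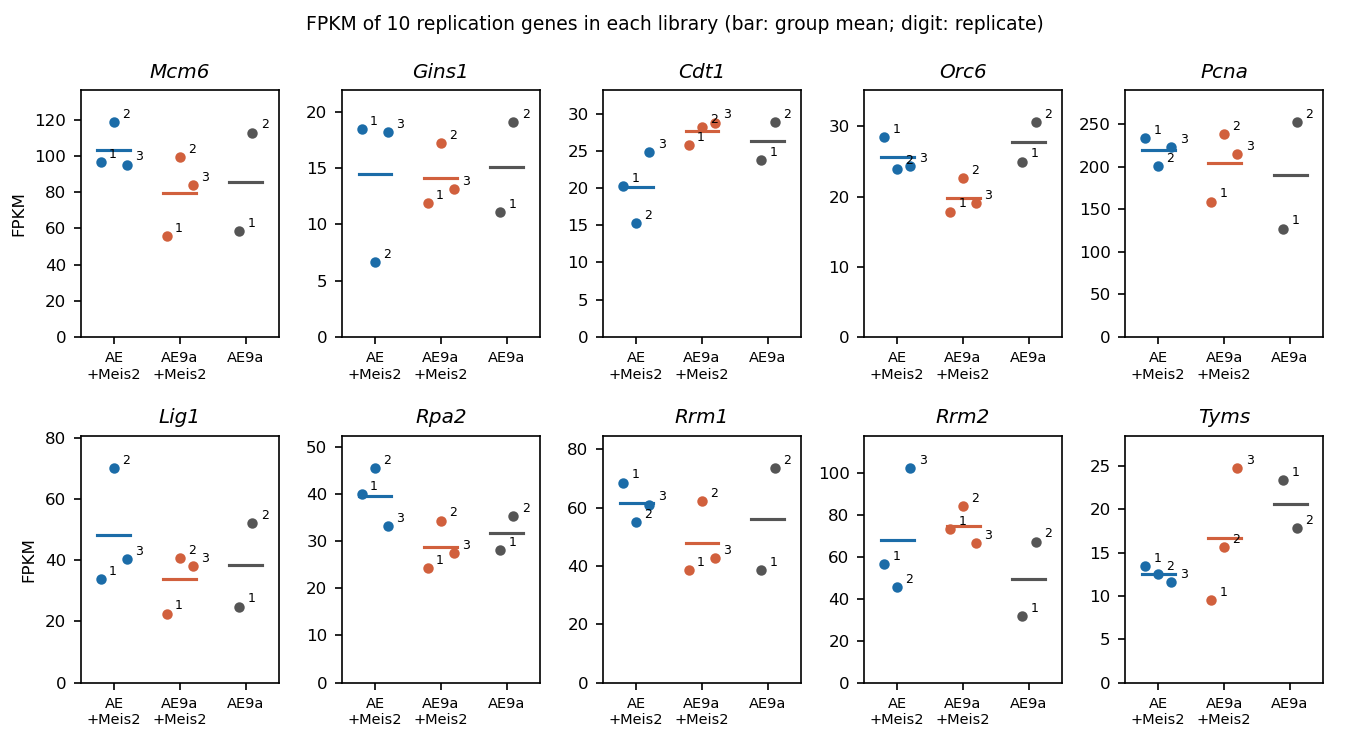
FPKM of 10 replication genes (vertical axes, from 0) in the 3 groups, with a point for each library, its replicate number beside it and a bar at the group mean. Orc6 is lower in all 3 AE9a+Meis2 libraries (17.8 to 22.6 FPKM) than in any other library, while Mcm6, Pcna, Lig1 and Rrm1 have AE9a+Meis2 replicate 1 and AE9a replicate 1 at the bottom of their groups.

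Among the genes for primer synthesis, Prim1 (chromosome 10, 128015215 to 128030030), the catalytic primase subunit, had the highest mean. It had 35.3, 23.5 and 32.9 FPKM in AE+Meis2, 21.8, 34.2 and 27.8 in AE9a+Meis2, and 26.5 and 40.6 in AE9a. Its groups overlapped, with log2 differences of -0.25 ± 0.30, 0.13 ± 0.27 and -0.12 ± 0.30 in the order of comparisons given above. Pola1 had the widest range of the 38 genes, from 6.23 FPKM in AE9a+Meis2 replicate 1 and 7.17 FPKM in AE9a replicate 1 to 21.4 FPKM in AE9a replicate 2. Its partner Pola2 stayed between 20.7 and 30.6 FPKM, and Prim2, the large primase subunit, between 16.7 and 25.4 FPKM. Neither Pola2 nor Prim2 was low in AE9a+Meis2 replicate 1, where they had 27.7 and 25.4 FPKM.

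The 4 genes of polymerases delta and epsilon had means between 10.3 and 17.1 FPKM. Pold2 (chromosome 11, 5872180 to 5878256), an accessory subunit of polymerase delta, had 18.4, 14.9 and 12.6 FPKM in AE+Meis2, 17.8, 20.4 and 18.7 in AE9a+Meis2, and 12.002 and 22.1 in AE9a. The AE9a libraries were its lowest and its highest, and its log2 differences were 0.20 ± 0.29, -0.30 ± 0.26 and -0.10 ± 0.29. Pole, the catalytic subunit of polymerase epsilon, had 12.1, 13.1 and 10.7 FPKM in AE+Meis2, 9.09, 13.4 and 9.12 in AE9a+Meis2, and 11.2 and 16.7 in AE9a, so the log2 values differed by -0.37 ± 0.26 in the Meis2 comparison (limma adjusted p = 1). Pold1, the catalytic subunit of polymerase delta, ran from 10.5 to 21.1 FPKM and Pole2 from 7.06 to 14.4 FPKM, both lowest in AE9a+Meis2 replicate 1.

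Pcna (chromosome 2, 132249286 to 132253180), the clamp and the most abundant of the 38 genes, had 234, 201 and 223 FPKM in AE+Meis2, 159, 238 and 215 in AE9a+Meis2, and 127 and 252 in AE9a. The 2 AE9a libraries were the lowest and the highest of all 8, so the spread within that group was wider than any difference between group means. Its log2 differences were 0.16 ± 0.32, 0.12 ± 0.28 and 0.29 ± 0.32. Of the 5 clamp loader genes, Rfc2 (chromosome 5, 134582690 to 134598328) was the most abundant and the least even: 104, 136 and 59.4 FPKM in AE+Meis2, 61.0, 128 and 121 in AE9a+Meis2, and 71.2 and 112 in AE9a. Rfc2 was 3.02, 6.04 and 2.03 times Rfc4 in the 3 AE+Meis2 libraries, and 3.27 to 5.11 times in the other 5, although the 2 proteins sit in 1 complex. Rfc2 shares exon bases with Lat2 and Rfc4 with Eif4a2, both on the opposite strand. Rfc1, the large loader subunit, ran from 17.9 to 33.8 FPKM, and its log2 difference was 0.31 ± 0.27 in the joint comparison. Rfc3, Rfc4 and Rfc5 stayed within 15.9 to 25.3, 18.6 to 34.6 and 21.9 to 34.1 FPKM.

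Of the lagging strand and single-strand binding genes, Rpa1 (chromosome 11, 75300259 to 75348454), the large subunit of the protein that coats single-stranded DNA, had the highest mean. It had 54.3, 57.3 and 45.2 FPKM in AE+Meis2, 38.9, 59.2 and 58.5 in AE9a+Meis2, and 38.8 and 59.8 in AE9a, with log2 differences of 0.09 ± 0.28, 0.02 ± 0.25 and 0.11 ± 0.28. Rpa2 (chromosome 4, 132768360 to 132778746), its partner, had 40.0, 45.6 and 33.2 FPKM in AE+Meis2, 24.2, 34.4 and 27.4 in AE9a+Meis2, and 28.2 and 35.4 in AE9a. The log2 difference of Rpa2 in the fusion comparison was 0.46 ± 0.21 (95% interval -0.04 to 0.95, limma adjusted p = 0.729), with an overlap of 33.2 and 34.4 FPKM. Lig1 (chromosome 7, 13277175 to 13311426) had 33.9, 70.3 and 40.3 FPKM in AE+Meis2, 22.6, 40.7 and 38.1 in AE9a+Meis2, and 24.9 and 52.2 in AE9a. The Lig1 value in AE+Meis2 replicate 2 was the highest of the 8, and its log2 difference of 0.47 ± 0.40 in the fusion comparison had a limma adjusted p of 0.825. Fen1 ran from 25.3 to 38.9 FPKM, and Lig1 was 2.62 times Fen1 in that library and 0.874 to 1.53 times in the other 7.

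The 4 deoxynucleotide genes did not move as a unit. Rrm2 (chromosome 12, 24708254 to 24714146), the small subunit of ribonucleotide reductase, whose protein is made in S phase and destroyed after it, had 56.5, 45.4 and 103 FPKM in AE+Meis2, 73.4, 84.3 and 66.6 in AE9a+Meis2, and 31.6 and 67.3 in AE9a. AE9a replicate 1 had the lowest value and AE+Meis2 replicate 3 the highest, and AE9a replicate 2 lay just above the lowest AE9a+Meis2 library. The log2 difference of Rrm2 in the Meis2 comparison, 0.68 ± 0.42, was the widest of the 38 genes in that comparison (95% interval -0.31 to 1.66, limma adjusted p = 1). Rrm1 (chromosome 7, 102441695 to 102469771), the large subunit, had 68.7, 55.0 and 61.1 FPKM in AE+Meis2, 38.5, 62.4 and 42.6 in AE9a+Meis2, and 38.5 and 73.7 in AE9a. Its log2 difference had the opposite sign in that comparison, -0.19 ± 0.33, and was 0.38 ± 0.29 in the fusion comparison (limma adjusted p = 0.809). Within libraries, Rrm2 was 0.823, 0.826 and 1.68 times Rrm1 in AE+Meis2, 1.91, 1.35 and 1.57 times in AE9a+Meis2, and 0.820 and 0.914 times in AE9a. This ratio did not overlap between AE9a+Meis2 and AE9a. The same held for Mcm3 to Mcm6, Mcm5 to Mcm6 and Prim1 to Prim2 among the 17 ratios, so it is not particular to Rrm2 and Rrm1. The ratio of Rrm2 to Rrm1 was singled out after its values were seen and is given with no test. An exact permutation test of 3 against 2 libraries cannot go below p = 0.2.

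Tyms (chromosome 5, 30038546 to 30073645), the enzyme that makes thymidylate, had 13.4, 12.5 and 11.6 FPKM in AE+Meis2, 9.47, 15.6 and 24.8 in AE9a+Meis2, and 23.4 and 17.8 in AE9a. It was the only 1 of 38 genes whose groups did not overlap in the joint comparison, where it was lower, against 8.66% of all genes tested in that direction and 9.96% in the other. Its log2 difference there was -0.67 ± 0.37 (95% interval -1.53 to 0.20, limma adjusted p = 0.948). Tyms was highest in AE9a+Meis2 replicate 3 and AE9a replicate 1, the 2 libraries with values in silent gene families. A processed pseudogene of Tyms is listed in the same table, and near-identical copies can share reads, so its level is uncertain. Tk1, which salvages thymidine, ran from 24.98 to 56.5 FPKM, lowest in AE+Meis2 replicate 2 and highest in AE9a replicate 2. The ratio of Tyms to Tk1 was highest where Tyms was, at 0.896 in AE9a replicate 1 and 0.675 in AE9a+Meis2 replicate 3, and 0.274 to 0.499 in the other 6 libraries.

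The main pattern of the 38 genes was between libraries of the same group. AE9a+Meis2 replicate 1 was the lowest of its group in 32 of 38 genes (84.2%), against 32% of all genes tested. AE9a replicate 1 was below AE9a replicate 2 in 35 of 38 (92.1%), against 58.9%. Both held in 31 of 38 (81.6%), against 24.5%. AE9a+Meis2 replicate 2 was the highest of its group in 34 of 38 (89.5%), against 28.2%, and AE9a replicate 2 was the highest of all 8 libraries in 20 of 38 (52.6%), against 10.1%. These libraries were singled out after their values were seen, and the counts are a description with no test. Under the other scalings, filters and left-out libraries the count for AE9a+Meis2 replicate 1 stayed within 29 to 35, and that for AE9a replicate 1 within 34 to 35.

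**Figure D3:**
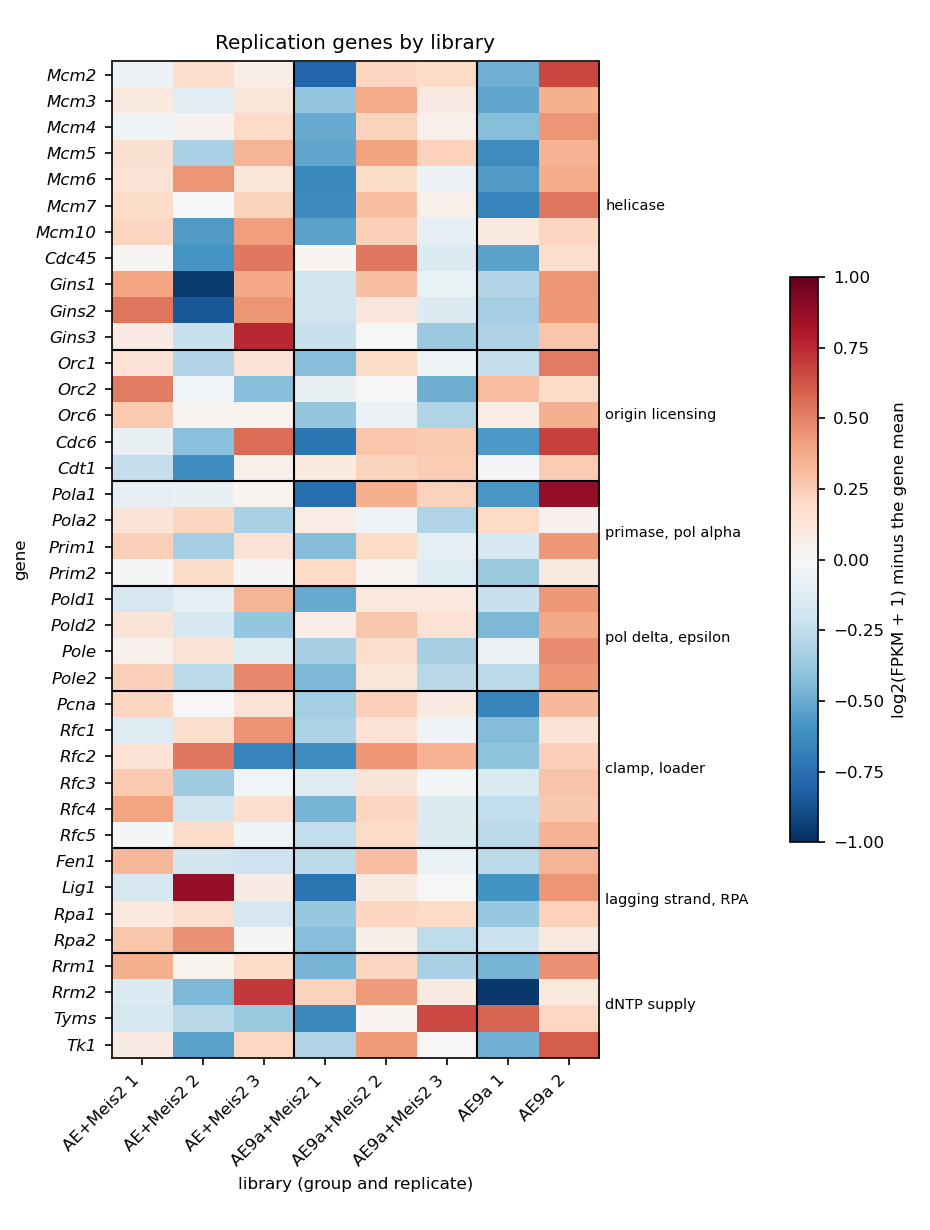
Each of the 38 replication genes (vertical axis, by role) in each library (horizontal axis, by group and replicate), colored by log2(FPKM + 1) minus the gene's mean over the 8 libraries, with red above and blue below the mean. AE9a+Meis2 replicate 1 and AE9a replicate 1 are blue through nearly all roles, with medians of -0.39 and -0.36, while AE9a replicate 2 is red, with a median of 0.35.

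The median of the 38 genes, as log2(FPKM + 1) minus each gene's mean, was 0.13, -0.10 and 0.13 in AE+Meis2, -0.39, 0.21 and -0.04 in AE9a+Meis2, and -0.36 and 0.35 in AE9a. Over all genes tested it stayed between -0.08 and 0.02. The 2 libraries of AE9a thus lay further apart than the group medians of any comparison. Subtracting from each gene the library's median over the other 37 lowered the median standard deviation within groups from 0.376 to 0.238 on the log2 scale, with a reduction in 31 of 38 genes (81.6%). Subtracting the library medians of the 38 genes from all genes tested raised it from 0.375 to 0.480, with a reduction in 22.9%. A gene that does not follow the 38 gains spread by this step, so the contrast is a description and no test. The median range of the 3 group means was 0.241 for the 38 genes and 0.395 for all genes tested.

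The 7 genes whose spread was not lowered were Orc2, Orc6, Cdt1, Pola2, Prim2, Rpa2 and Tyms, 3 of the 5 licensing genes among them. After the library shift, 21 single values in 15 genes still departed from the gene's mean by more than 0.5 on the log2 scale. AE+Meis2 replicate 2 held 7 of them: Lig1 (0.97), Rfc2 (0.62), Rpa2 (0.56) and Mcm6 (0.54) above, Gins1 (-0.85), Gins2 (-0.75) and Cdt1 (-0.52) below. AE+Meis2 replicate 3 held 6, and the library labelled AE+Meis2 replicate 1 and AE9a+Meis2 replicate 2 held 0. Tyms departed by 0.93 in AE9a replicate 1 and by 0.70 in AE9a+Meis2 replicate 3. Rrm2 was 0.62 above its mean in AE9a+Meis2 replicate 1 and stood at -0.61 in AE9a replicate 1.

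Some other measures moved with this order of libraries, and their part in it was not tested. Over all genes tested, AE9a+Meis2 replicate 1 was lowest of its group in 32% and AE9a replicate 1 below replicate 2 in 58.9%. AE9a+Meis2 replicate 1 was lowest in 5 of 7 mast cell and basophil markers and 3 of 7 stem and progenitor markers. It was lowest in 1 of 5 promyelocyte, 0 of 7 B cell, 1 of 7 stroma, 1 of 5 megakaryocyte and 1 of 3 eosinophil markers. AE9a replicate 1 was below replicate 2 in 7, 6, 5, 4, 5, 3 and 3 of these. All 10 erythroblast markers matched in the table were lowest of their group in AE9a+Meis2 replicate 1 and lower in AE9a replicate 1 than in replicate 2. Their summed level was 1276, 3333 and 2987 FPKM in AE9a+Meis2 and 1413 and 2788 in AE9a. In AE+Meis2 it was 5560, 2292 and 597 FPKM, lowest in replicate 3, where the 38 replication genes had a median deviation of 0.13. None was at 0, though the alpha-globin gene Hba-a2 was at 0.0128 FPKM in AE+Meis2 replicate 3 and 0.0127 FPKM in AE9a replicate 1. Of 10 maturing neutrophil markers, 9 were lowest of their group in AE9a+Meis2 replicate 1 and 10 were lower in AE9a replicate 1. Their summed level was 2343, 18116 and 61045 FPKM in AE9a+Meis2, 7993 and 31821 in AE9a, and 1813 to 190868 in AE+Meis2, where S100a9 was listed at 0 in every library. All 8 T and NK cell markers were lowest of their group in AE9a+Meis2 replicate 1 and 7 were lower in AE9a replicate 1, with summed levels of 14.5 to 80.0 FPKM in AE9a+Meis2, 28.3 and 53.7 in AE9a, and 59.8 to 125 in AE+Meis2. Monocyte and macrophage markers had the reverse order in AE9a+Meis2, with a summed level of 2040 FPKM in replicate 1 against 660 and 852 FPKM, and 443 to 1115 in AE+Meis2 and 530 and 560 in AE9a. Ly6c2 alone gave 1573 FPKM of that sum in replicate 1, against 351 and 422 FPKM, and without it the sums were 467, 309 and 430 FPKM. Replicate 1 was the highest of its group in 8 of the 10 markers, while Ccr2 and Mrc1 were lowest there. By a rough estimate from low values, AE9a replicate 1 was the shallowest library, at 12.2% of the depth of AE9a+Meis2 replicate 2. AE+Meis2 replicate 2 was at 14.8%, AE9a+Meis2 replicate 3 at 15.8% and AE9a+Meis2 replicate 1, the second deepest, at 66%. The estimate is the most frequent ratio of low values, which held 2.97% to 9.03% of the genes compared. The part of depth in the order was not tested.

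Lists of other genes of the pathway gave 0 called genes in each of the 3 comparisons. Of 23 other replisome, fork and chromatin assembly genes, 4, 17 and 14 were higher in the Meis2, fusion and joint comparisons, with medians of -0.11, 0.10 and 0.03. Of 16 further licensing and initiation factors 4, 12 and 10 were higher, with medians of -0.10, 0.18 and 0.01. Of 30 other nucleotide synthesis genes 11, 20 and 16 were higher, with medians of -0.06, 0.08 and 0.04. The low libraries recurred in part. AE9a+Meis2 replicate 1 was the lowest of its group in 16 of 23 replisome, 16 of 30 nucleotide and 7 of 16 licensing genes, against 32% of all genes tested. AE9a+Meis2 replicate 3 was the lowest in 6, 14 and 9 of them, so it was the more frequent one for the licensing genes. AE9a replicate 1 was below replicate 2 in 20, 27 and 12 of them, against 58.9% of all genes tested.

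The genes of these lists with the smallest p are given next, and none passed the adjustment. In the Meis2 comparison 13.1% of all genes tested were higher and 10.7% lower with no overlap of the groups. In the joint comparison these shares were 9.96% and 8.66%. Atad5, which unloads Pcna from DNA, had 13.7, 9.68 and 12.6 FPKM in AE+Meis2, 13.2, 15.7 and 10.7 in AE9a+Meis2, and 23.2 and 22.2 in AE9a. Both AE9a libraries were above all 6 others, with log2 differences of -0.88 ± 0.24 in the joint comparison (limma adjusted p = 0.558) and -0.76 ± 0.24 in the Meis2 comparison (adjusted p = 1). Samhd1, which breaks down deoxynucleotides, had 106, 145 and 138 FPKM in AE+Meis2, 87.4, 119 and 173 in AE9a+Meis2, and 54.1 and 76.9 in AE9a. Both AE9a libraries were the lowest, with log2 differences of 0.98 ± 0.32 (limma adjusted p = 0.711) and 0.91 ± 0.32 (adjusted p = 1). Dctd, the deaminase that feeds thymidylate synthesis from dCMP, had 5.32, 4.92 and 4.30 FPKM in AE+Meis2, 1.61, 3.72 and 1.34 in AE9a+Meis2, and 1.78 and 2.05 in AE9a, so the log2 values differed by 0.93 ± 0.30 in the fusion comparison (limma adjusted p = 0.617).

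Regulators of S phase entry were also not called, 0 of the 30 tested in each comparison. In the Meis2 comparison 4 were higher and 1 lower with no overlap of the groups (13.1% and 10.7% of all genes tested). In the fusion comparison 1 was higher and 2 lower with no overlap (7% and 6.49% of all genes tested). E2f2, an activating E2F, had 18.5, 8.41 and 18.4 FPKM in AE+Meis2, 22.9, 38.5 and 40.6 in AE9a+Meis2, and 11.6 and 17.9 in AE9a. All AE9a+Meis2 libraries were above all others, with log2 differences of 1.14 ± 0.42 against AE9a (limma adjusted p = 1) and of -1.15 ± 0.37 in the fusion comparison (adjusted p = 0.617). Cdkn2a, which encodes inhibitors of the cell cycle, had 2.91, 1.26 and 0.363 FPKM in AE+Meis2, 5.32, 3.55 and 5.13 in AE9a+Meis2, and 5.48 and 3.59 in AE9a, so the log2 values differed by -1.29 ± 0.40 in the fusion comparison (limma adjusted p = 0.601). Cdkn1b, an inhibitor of cyclin E-Cdk complexes, had 52.3, 66.2 and 59.3 FPKM in AE+Meis2, 46.7, 41.1 and 38.6 in AE9a+Meis2, and 44.8 and 47.8 in AE9a, so the log2 values differed by 0.48 ± 0.16 in the fusion comparison (limma adjusted p = 0.626). Over the list 9, 23 and 19 of 30 genes were higher in the 3 comparisons, with medians of -0.08, 0.13 and 0.04. Of 16 replication stress checkpoint genes 3, 13 and 11 were higher, with medians of -0.20, 0.27 and 0.10. The MYC family holds transcription factors that drive growth or oppose it. Of its 6 genes tested 4, 5 and 5 were higher, with medians of 0.13, 0.41 and 0.34. Myc itself was lower in the 3 comparisons, with log2 differences of -0.25 ± 0.34, -0.43 ± 0.31 and -0.67 ± 0.34. Mxd4 was higher, at 0.24 ± 0.24, 0.52 ± 0.21 and 0.76 ± 0.24, and neither gene passed the adjustment.

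Genes of mitosis shared the low AE9a library and not the low AE9a+Meis2 library. All 22 were lower in AE9a replicate 1 than in replicate 2, but in AE9a+Meis2 replicate 1 was the lowest in 4 of 22 and replicate 3 in 18 of 22, and AE+Meis2 replicate 2 was the lowest of its group in 20 of 22. Over all genes tested these 2 libraries were also the most often lowest of their groups, AE9a+Meis2 replicate 3 in 45.6% and AE+Meis2 replicate 2 in 39.5%. Their median deviation from the gene mean was 0.19, -0.50 and 0.51 in AE+Meis2, -0.18, 0.33 and -0.50 in AE9a+Meis2, and -0.22 and 0.25 in AE9a. AE9a+Meis2 replicate 3 thus had replication genes near their mean (-0.04) and mitosis genes below theirs, and it is 1 of the 2 libraries with values in silent gene families. Mki67, the proliferation antigen Ki-67, had 81.5, 85.7 and 90.5 FPKM in AE+Meis2, 54.3, 90.3 and 56.4 in AE9a+Meis2, and 51.4 and 80.0 in AE9a, so the log2 values differed by 0.39 ± 0.26 in the fusion comparison (limma adjusted p = 0.784). Of the 22 mitosis genes 4, 18 and 13 were higher in the 3 comparisons, with medians of -0.12, 0.24 and 0.02. In the fusion comparison Cenpf differed by 0.67 ± 0.39 and Foxm1 by -0.44 ± 0.32, and neither passed the adjustment.

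**Figure D4:**
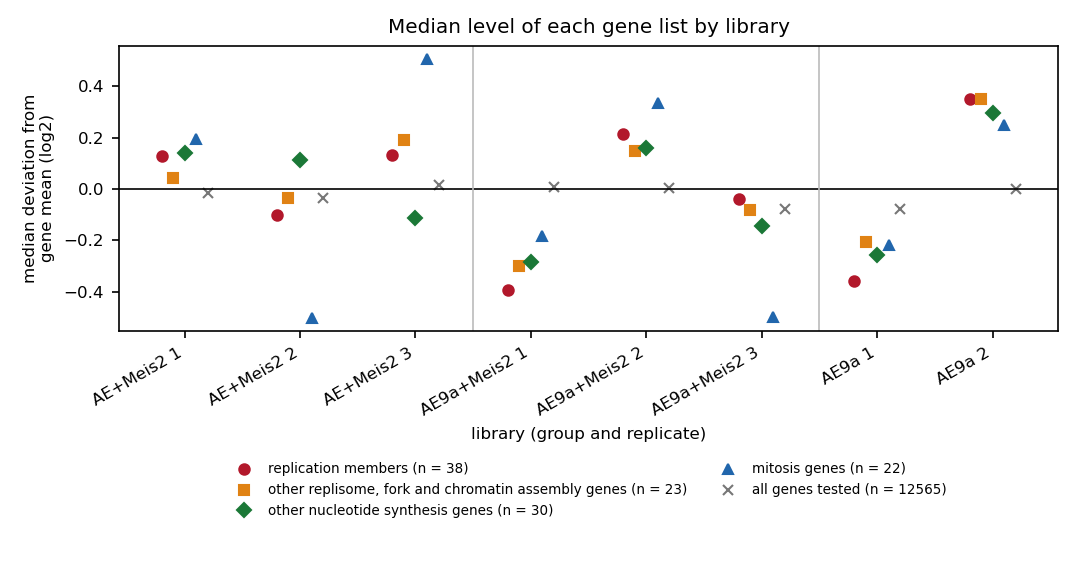
Median over each gene list of log2(FPKM + 1) minus the gene's mean (vertical axis) in each library (horizontal axis, by group and replicate), with 1 marker type per list. In AE9a+Meis2 replicate 1 and AE9a replicate 1 the 38 replication genes are lowest (-0.39 and -0.36), while mitosis genes are lowest in AE+Meis2 replicate 2 and AE9a+Meis2 replicate 3 (both -0.50) and all genes tested stay near 0.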

How the data were processed

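The authors deposited 1 table of FPKM values, 23997 genes by 8 libraries. TopHat, Cufflinks, Cuffdiff and the build mm10 are named in the submitters' processing notes, without settings; annotation and scaling between libraries: not given in the sources used here. Short RNAs took 8.68% to 38% of a library's summed FPKM. Whether this changed the values of the other genes was not tested. Groups and replicate numbers came from sample titles. The deposited FPKM were taken to log2(FPKM + 1), which understates the change of low genes. The filter asked for 1 FPKM in 2 libraries and left 12565 genes for limma 3.58.1 (R 4.3.3), with 1 coefficient per group over all 8 libraries and a trend of variance on level (2.28 prior degrees of freedom, 5 residual). The adjustment was Benjamini-Hochberg at 0.05, and ± is a standard error. Absolute depth is unknown. Members, gene lists and tests were chosen with earlier results of these data known. All 38 members are named by role, in full those with the smallest p and the highest mean of each role, with up to 3 genes of smallest p from each other list. Of 94 cell type markers 91 matched. Motif searches used pandas 2.3.3 in Python 3.11.15, and plots used matplotlib 3.10.9. The limma script was tested on simulated data.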

Additional observations from a re-analysis of the deposited data

How the results depend on the processing

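The limma counts, the medians of the pathway lists and the differences of selected single genes were recomputed under 20 other settings. The order counts were recomputed under 12 settings for AE9a+Meis2 replicate 1 and 13 for AE9a replicate 1. Ratios between genes, departures, the change in spread, marker orders and motif shares were not recomputed. In each of the 3 comparisons 0 of the 38 replication genes were called by limma under every setting, with smallest adjusted p-values of 0.641 in the Meis2 comparison, 0.332 in the fusion comparison and 0.544 in the joint comparison. With 2 or 3 libraries a group and no read counts, differences below about 2-fold could not be resolved for many of the genes. The cause of the changes below was not tested.

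Genes called over the whole table moved as follows. In the Meis2 comparison (6 genes) the count was 3 with a pseudocount of 5, 2 with the replicate number as a block, 3 without both libraries with values in silent gene families, and 2 to 9 with 1 library left out. In the fusion comparison (5 genes) it was 16 after scaling without small RNAs and 6 to 23 with 1 library left out: 8 without AE+Meis2 replicate 1, 8 without replicate 2, 23 without replicate 3 and 9 without AE9a+Meis2 replicate 1. In the joint comparison (4 genes) it was 2 with a pseudocount of 5, 1 with no filter, 2 with only the groups compared, 0 with the replicate block, and 1 to 10 with 1 library left out: 1 without AE+Meis2 replicate 1, 10 without AE+Meis2 replicate 3, 2 without AE9a+Meis2 replicate 2 and 1 without AE9a replicate 1. In the Meis2 comparison leaving out 1 library gave 2 without AE9a replicate 1, 9 without AE+Meis2 replicate 3, 4 without AE9a+Meis2 replicate 2 or 3, and 5 to 7 without any of the others.

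The median log2 difference of the 38 genes in the Meis2 comparison (-0.11) was -0.39 without both silent-family libraries and -0.41 to 0.29 with 1 library left out. In the fusion comparison (0.11) it was -0.13 after scaling without small RNAs and -0.063 to 0.24 with 1 library left out. In the joint comparison (-0.0035) it was -0.36 after scaling without small RNAs, -0.30 without both silent-family libraries and -0.30 to 0.41 with 1 library left out. Scaling without small RNAs put the median of all genes at -0.11, -0.18 and -0.27.

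Uncalled log2 differences of single genes turned sign as follows. Quantile scaling gave Cdt1 -0.0097 and Pcna -0.065 in the Meis2 comparison, Pcna -0.0061 and Rpa1 -0.13 in the fusion comparison, and Pcna -0.071 and Rpa1 -0.13 in the joint comparison. Median scaling gave Rpa1 -0.019 in the fusion comparison. Scaling without small RNAs gave Cdt1 -0.041 and Rpa1 -0.029 in the Meis2 comparison, Prim1 -0.12, Pcna -0.13 and Rpa1 -0.23 in the fusion comparison, and Mcm6 -0.036, Pcna -0.088, Rfc1 -0.050, Rpa1 -0.26 and Rpa2 -0.059 in the joint comparison. Without both silent-family libraries Cdt1 was -0.092, Pold2 -0.20, Pcna -0.37 and Rpa1 -0.31 in the Meis2 comparison, and Mcm6 -0.13, Pcna -0.20, Rpa1 -0.20 and Rrm2 -0.069 in the joint comparison.

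With 1 library left out, values in the Meis2 comparison ran from -0.062 to 0.21 for Cdt1, -0.54 to 0.40 for Mcm6, -0.33 to 0.65 for Pcna, -0.21 to 0.62 for Pold2, -0.55 to 0.051 for Prim1 and -0.22 to 0.39 for Rpa1. In the fusion comparison they ran from -0.046 to 0.24 for Pcna, -0.032 to 0.30 for Prim1, -0.18 to 0.12 for Rpa1 and -0.55 to 0.033 for Rrm2. In the joint comparison they ran from -0.13 to 0.80 for Mcm6, -0.20 to 0.78 for Pcna, -0.52 to 0.31 for Pold2, -0.42 to 0.18 for Prim1, -0.20 to 0.41 for Rpa1 and -0.069 to 1.00 for Rrm2.

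The labels do not say whether the replicate numbers pair the samples. Same-numbered libraries of 2 groups had correlations of their deviations between -0.0252 and 0.133, and differently numbered libraries between -0.101 and 0.0827. These values cannot decide it: a low correlation does not exclude a shared donor or culture, and the 2 AE9a libraries deviate by equal and opposite amounts. With the replicate number as a block 0 of the 38 genes were called, 2, 5 and 0 genes of the whole table were called, the medians of the 38 were -0.12, 0.11 and 0.0028, and Cdt1 was -0.021 in the Meis2 comparison.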
